A study of Homo sapiens with 9 samples.

Results

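The genes described here are G protein-coupled receptors for amines, nucleotides and bioactive lipids, the GPRC5 receptors, and genes that carry a GPR number, many of which encode receptors with no settled ligand. They were taken by symbol alone from the array's probe sets that carry exactly 1 gene symbol. This gave 118 genes from 119 probe sets, of 18417 genes measured in the same way. The symbols of all 118 were still current in RefSeq, and 10 further probe sets that held such a symbol together with others were not used. A GPR number is no proof of a receptor, and 6 of the 63 numbered genes (GPR107, GPR108, GPR137, GPR143, GPR155 and GPR180) encode membrane proteins outside the main receptor classes.

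Expression was measured on 9 Affymetrix whole-transcript arrays of total RNA from IMR90 ER:RAS cells, in 3 groups of 3. IMR90, spelled IRM90 in the labels, is a line of human lung fibroblasts, and ER:RAS is a fusion of oncogenic RAS with the ligand-binding domain of the oestrogen receptor, which stays idle until 4-hydroxytamoxifen (4OHT) is added. The shARID1B+4OHT cells carried a short hairpin RNA against ARID1B and received 4OHT. The vector+4OHT cells, called senescent in the design, had the empty vector in place of the hairpin and the same drug. The vector-4OHT cells, called non-senescent, had the empty vector and no drug. All 3 groups carried ER:RAS, the dose of 4OHT was 100 nM, and the labels give day 6 after 4OHT for every array. The labels do not say which hairpin was used, no group carried a control hairpin, and no cells without ER:RAS received 4OHT, so RAS and the drug itself cannot be told apart. The study calls the replicates of this experiment biological. The labels do not say whether they were separate cultures, and the p-values measure the spread between these arrays.

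G protein-coupled receptors span the membrane and pass a signal from outside the cell to G proteins inside it. Receptors coupled to Gs raise cyclic AMP through adenylyl cyclases, those coupled to Gi lower it, and those coupled to Gq act through phospholipase C beta and calcium. Receptor kinases and arrestins switch receptors off, and RGS proteins shorten the active state of the G protein. Fibroblasts respond to lysophosphatidic acid (LPA), sphingosine 1-phosphate (S1P), serotonin and histamine, among others, with contraction, migration or growth.

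The labels held for the gene that the hairpin targets. ARID1B, a SWI/SNF subunit that binds DNA, averaged 8.05 ± 0.088 in shARID1B+4OHT cells, 8.79 ± 0.16 in vector+4OHT cells and 8.91 ± 0.052 in vector-4OHT cells (log2 expression, SD, n = 3 each), a knockdown change of -0.73 (limma adjusted p = 0.000179). All 10 fibroblast markers lay above 6.75, the median of all values in the table, in every group. Of 8 leukocyte markers 1 lay above it in every group, which was CD68, a protein of lysosomes. Of 9 endothelial markers 2 did, and of 8 epithelial markers 3 in shARID1B+4OHT cells, 2 in vector+4OHT cells and 2 in vector-4OHT cells. The summed linear level of the fibroblast markers was 34440 to 35450 in shARID1B+4OHT cells, 33220 to 34770 in vector+4OHT cells and 40180 to 44240 in vector-4OHT cells. Array medians lay between 6.70 and 6.79.

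Most of these receptor genes gave a low signal in these cells. The median of the 118 mean levels was 6.25 on the log2 scale, against 7.60 over all genes, and 52 of the 118 lay above 6.75 on at least 3 arrays, against 64.9% of all genes. On all 9 arrays 43 lay above it, and 62 lay above it on none. The table holds no detection call, so a value under 6.75 was not shown to be above background. Values of different probe sets are not amounts that can be set against each other, and the levels of genes are given only as a place on the array's scale.

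By family, 6 of 8 adrenergic receptors, 3 of 4 S1P receptors and 3 of 5 LPA receptors lay above 6.75 on all 9 arrays. That held for 2 of 5 muscarinic, 2 of 5 dopamine, 2 of 4 GPRC5 and 22 of 63 numbered genes. It held for 1 of 12 serotonin receptors (HTR1B), 1 of 8 nucleotide receptors (P2RY2) and 1 of 4 histamine receptors (HRH1). The 10 highest values, in order, belonged to LPAR1 at 11.75, GPR108 at 10.59, GPR180 at 10.36, GPR107 at 10.24, CHRM2 at 9.86, GPRC5A at 9.83, GPRC5B at 9.76, GPR176 at 9.59, GPR3 at 9.54 and GPR155 at 9.28 (means of 9 arrays). Of those 10, 4 (GPR107, GPR108, GPR155 and GPR180) encode the membrane proteins outside the receptor classes, and all 10 changed in at least 1 of the comparisons below.

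**Figure D1:**
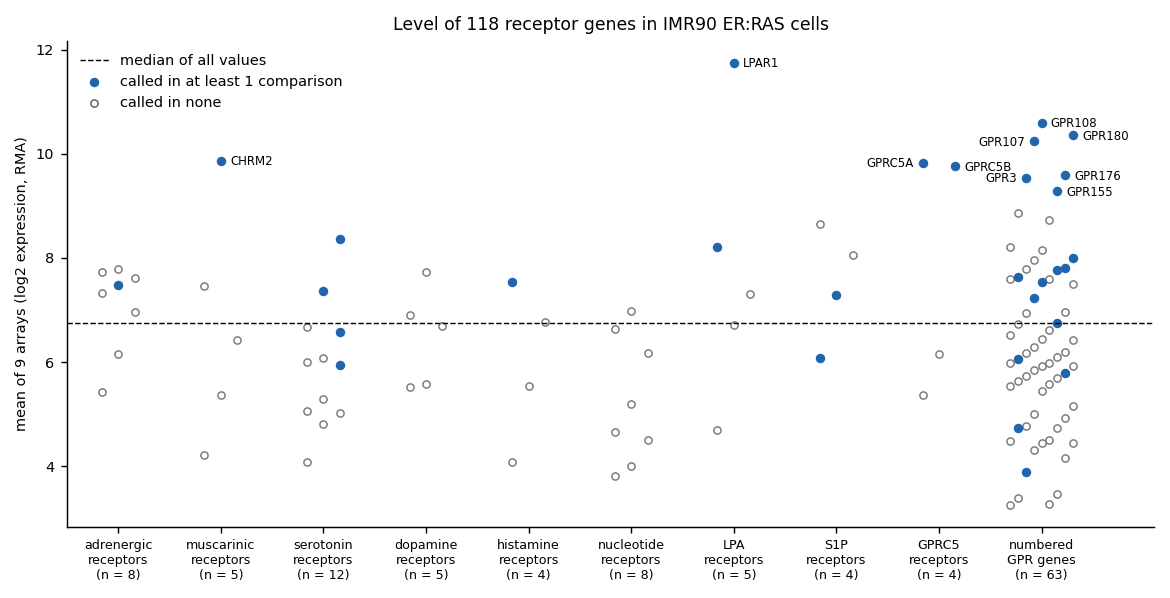
Each point is the mean log2 expression of 1 receptor gene over the 9 arrays, by family, with the median of all values (6.75) as a dashed line and genes called in at least 1 of the 3 comparisons filled. LPAR1 has the highest value at 11.75, most of the 8 nucleotide receptors lie under the line, and 30 of the 118 genes are filled.

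The regulatory sequence just before the start site is shown for 5 members, as RefSeq gives it in assembly GRCh38.p14. Of the 118 genes, 97 had an entry in the promoter table, with 129 start sites. Each line gives 250 bases 5′ to 3′ along the gene's strand, ending at the base before the annotated start. HTR7 is shown as the receptor with the largest rise. GPR3 and GPR6 are shown because both encode receptors that raise cyclic AMP without an added ligand, and both hold the full cyclic AMP response element TGACGTCA (CRE), in capitals. HRH1 and GPR176 changed with the hairpin and hold the letters TGANTCA, the AP-1 site, in capitals.
HTR7, chr10:90858040-90858289, minus strand: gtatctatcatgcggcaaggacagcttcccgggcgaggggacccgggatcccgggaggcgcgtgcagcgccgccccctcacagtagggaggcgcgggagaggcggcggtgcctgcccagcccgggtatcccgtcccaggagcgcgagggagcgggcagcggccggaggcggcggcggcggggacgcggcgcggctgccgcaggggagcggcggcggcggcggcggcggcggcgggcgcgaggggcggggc
GPR3, chr1:27392372-27392621, plus strand: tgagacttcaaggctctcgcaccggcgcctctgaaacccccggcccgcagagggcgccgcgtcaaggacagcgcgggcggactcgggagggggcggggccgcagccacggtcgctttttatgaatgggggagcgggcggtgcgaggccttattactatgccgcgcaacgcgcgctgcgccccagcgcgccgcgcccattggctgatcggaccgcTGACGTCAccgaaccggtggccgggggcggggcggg
GPR6, chr6:109978061-109978310, plus strand: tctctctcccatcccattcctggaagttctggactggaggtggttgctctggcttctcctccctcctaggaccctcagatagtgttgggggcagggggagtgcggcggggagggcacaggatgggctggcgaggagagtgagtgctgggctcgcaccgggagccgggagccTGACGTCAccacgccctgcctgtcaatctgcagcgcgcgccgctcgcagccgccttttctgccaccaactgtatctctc
HRH1, chr3:11136988-11137237, plus strand, 1 of 3 start sites: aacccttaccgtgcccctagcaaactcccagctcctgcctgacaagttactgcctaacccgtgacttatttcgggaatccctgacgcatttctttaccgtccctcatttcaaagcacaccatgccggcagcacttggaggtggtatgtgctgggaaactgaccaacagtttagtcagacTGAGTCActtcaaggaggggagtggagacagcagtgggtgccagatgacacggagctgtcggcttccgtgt
GPR176, chr15:39829277-39829526, minus strand, 1 of 2 start sites: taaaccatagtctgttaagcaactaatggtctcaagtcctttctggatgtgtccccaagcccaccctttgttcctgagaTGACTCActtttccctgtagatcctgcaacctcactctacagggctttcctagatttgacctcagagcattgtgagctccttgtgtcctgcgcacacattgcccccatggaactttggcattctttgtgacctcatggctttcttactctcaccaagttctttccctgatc

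The CRE of GPR3 lay 36 to 29 bases before the start and that of GPR6 79 to 72 bases before it. The AP-1 letters lay 71 to 65 bases before the start in HRH1 and 171 to 165 bases before it in GPR176. Both strands were searched, and the patterns do not overlap each other in these windows. The CRE was found in 3 of the 129 receptor windows, those of GPR3, GPR6 and S1PR2, or 2.33%, against 1.65% of 35116 windows of all genes. The AP-1 letters were found in 6 of 129 (GPR141, GPR152, GPR176, HRH1, HTR2C and LPAR2), or 4.65%, against 6.57% of all. Of the 25 members with a window that changed in some comparison, 1 held the CRE and 2 held the AP-1 letters. The HTR7 window held neither, and 81.2% of its bases were G or C. A match of letters is a description of the sequence, and these arrays hold no measure of binding.

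The first comparison, of vector+4OHT with vector-4OHT cells, asked how the receptors differed once RAS had been switched on. Serotonin receptor HTR7 rose most and serotonin receptor HTR2B fell most, followed by falls of GPRC5A, the muscarinic receptor CHRM2 and the histamine receptor HRH1. Of the 118 genes, 25 were called (21.2%), 13 higher and 12 lower, at a limma adjusted p under 0.05 with Benjamini-Hochberg adjustment over all 18417 genes. Over all genes 32.6% were called, 14.9% higher and 17.6% lower. Among genes above 6.75 on at least 3 arrays the share was 40.4% of 52 receptor genes, against 45.3% of 11945 genes. Among the 66 receptor genes that were not, it was 6.06%. Changes of at least 2-fold were called for 4 genes (1 higher, 3 lower), against 2.98% of all genes. The arrays of both groups did not overlap in 15 genes that were higher and 20 that were lower, against 40.1% of all genes in either direction. The median log2 change was -0.01 over the 118 and -0.01 over all genes. In bulk RNA, fewer cells that express a receptor and less of its RNA per cell cannot be told apart.

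The second comparison, of shARID1B+4OHT with vector+4OHT cells, asked what the hairpin did to cells with active RAS. GPRC5A and CHRM2 rose more than 2-fold, and GPR183, HTR1D and GPR176 had the largest falls. Of the 118 genes 11 were called (9.32%), 6 higher and 5 lower, against 15.7% of all genes (9.63% higher, 6.09% lower). Among genes above 6.75 on at least 3 arrays the share was 17.3% of 52 receptor genes, against 22.5% of 11945 genes. For the 66 dimmer receptor genes it was 3.03%. The 2 changes of at least 2-fold compare with 0.434% of all genes, and the arrays did not overlap in 13 genes that were higher and 11 that were lower, against 32.5% of all genes in either direction. The median log2 change was -0.04, against -0.02 over all genes. The count was 7 without shARID1B+4OHT replicate 2, where GPR135, GPR3, GPR85 and HTR2B were no longer called. It was 3 (CHRM2, GPRC5A and GPR176) under the methods' t-test, run on the 6 arrays compared with the same adjustment. Both comparisons use the vector+4OHT arrays, and high or low values on those arrays move the 2 changes in opposite directions. On these arrays replicate 1 held the highest value of its group in 69 of the 118 genes and replicate 3 the lowest in 57, and their part in the results beyond the values given without each array was not tested.

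The third comparison, of shARID1B+4OHT with vector-4OHT cells, asked what difference from cells without 4OHT was left with the hairpin. Here 21 of 118 genes were called (17.8%), 9 higher and 12 lower, against 31.5% of all genes (15.6% higher, 15.9% lower). Among genes above 6.75 on at least 3 arrays the share was 38.5% of 52 receptor genes, against 42.8% of 11945 genes. For the 66 dimmer receptor genes it was 1.52%. At least 2-fold changes were called for 2 genes, HTR7 higher and HTR2B lower, against 3.02% of all genes, and the arrays did not overlap in 13 genes that were higher and 25 that were lower, against 45.9% of all genes in either direction. With each array's median subtracted, 24 were called, 13 higher and 11 lower, so which direction held more receptor genes depended on the centring. Over the 3 comparisons 30 genes were called at least once, and 88 in none.

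**Figure D2:**
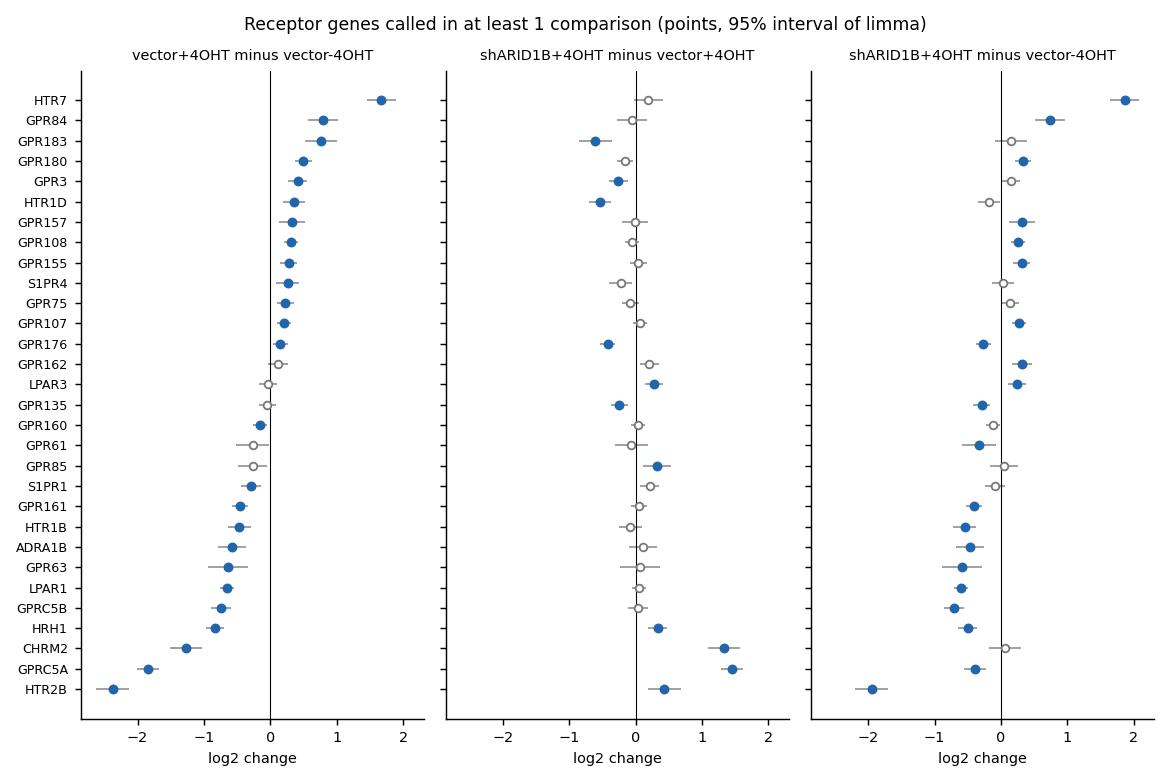
Log2 change (points) with its 95% interval from limma for the 30 receptor genes called in at least 1 comparison, in the senescence, knockdown and remaining comparison from left to right, ordered by the senescence change, with called changes filled. The senescence change runs from -2.38 for HTR2B to 1.67 for HTR7, and the 2 knockdown changes beyond 1 are GPRC5A at 1.45 and CHRM2 at 1.33.

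Of 12 serotonin receptors, 2 rose with 4OHT (HTR7 and HTR1D), 2 fell (HTR2B and HTR1B), and the other 8 were not called in any comparison. HTR2B, a Gq-coupled receptor known for its role in heart valve fibroblasts, measured 5.52, 5.47 and 5.32 in shARID1B+4OHT cells, 5.20, 4.79 and 5.03 in vector+4OHT cells, and 7.54, 7.19 and 7.42 in vector-4OHT cells. All 6 arrays with 4OHT lay far under the 3 without it, and under 6.75. The level was 0.193 times as high in vector+4OHT as in vector-4OHT cells, a log2 change of -2.38 ± 0.11 (SE, limma adjusted p = 6.78e-08). With 4OHT the signal was not shown to be above background, so the ratio is uncertain. The knockdown change of 0.43 ± 0.11 (SE, limma adjusted p = 0.0264) was small beside it, and was lost in 6 of 17 alternatives, among them the methods' t-test and those without vector+4OHT replicate 2 or 3 or shARID1B+4OHT replicate 1 or 2 (adjusted p up to 0.166 over the alternatives). A difference of -1.95 from vector-4OHT cells remained (limma adjusted p = 2.75e-07).

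HTR7, a Gs-coupled serotonin receptor, moved the other way. It measured 8.03, 8.11 and 7.99 in shARID1B+4OHT cells, 7.78, 7.81 and 7.96 in vector+4OHT cells, and 6.28, 6.33 and 5.93 in vector-4OHT cells. It was 3.18-fold higher in vector+4OHT than in vector-4OHT cells (log2 change 1.67 ± 0.10, SE, limma adjusted p = 3.05e-07). Its vector-4OHT values lay under 6.75, where signal above background was not shown, and both folds against them are uncertain. With the hairpin its change of 0.19 was not called (limma adjusted p = 0.229, 95% interval -0.02 to 0.41), and it measured 3.64-fold above vector-4OHT cells (limma adjusted p = 1.2e-07).

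The Gi-coupled receptors HTR1B and HTR1D differed in direction. HTR1B measured 8.17, 8.12 and 8.20 in shARID1B+4OHT cells, 8.33, 8.30 and 8.09 in vector+4OHT cells, and 8.84, 8.71 and 8.58 in vector-4OHT cells. It fell by 0.47 with 4OHT (limma adjusted p = 0.000884) and lay 0.55 lower than in vector-4OHT cells with the hairpin as well, a log2 change of -0.55 (limma adjusted p = 0.000318). The senescence call was lost under the methods' t-test (adjusted p = 0.0562). HTR1D measured 6.449, 6.195 and 6.374 in shARID1B+4OHT cells, 6.869, 6.971 and 6.793 in vector+4OHT cells, and 6.560, 6.560 and 6.447 in vector-4OHT cells. Its 3 vector+4OHT arrays stood above all 6 others, near 6.75. It rose by 0.35 with 4OHT (limma adjusted p = 0.0033), and its knockdown change was -0.54 (limma adjusted p = 0.000753), a call lost under the methods' t-test (adjusted p = 0.0514).

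Of 5 muscarinic acetylcholine receptors only CHRM2 was called in any comparison. CHRM2, the Gi-coupled receptor that slows the heart, measured 10.36, 10.37 and 10.25 in shARID1B+4OHT cells, 8.69, 9.09 and 9.21 in vector+4OHT cells, and 10.34, 10.23 and 10.22 in vector-4OHT cells. The 3 vector+4OHT arrays lay under all others, by more than the spread within any group, and the shARID1B+4OHT and vector-4OHT arrays overlapped. The level was 0.415 times as high in vector+4OHT as in vector-4OHT cells, a log2 change of -1.27 ± 0.11 (SE, limma adjusted p = 6.8e-06), and 2.52-fold higher with the hairpin (log2 change 1.33 ± 0.11, SE, limma adjusted p = 3.17e-05). What remained was 0.06, with a 95% interval of -0.18 to 0.31 (limma adjusted p = 0.719). The other 4 had mean levels of 4.22 to 7.46.

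Of 4 histamine receptors only HRH1 was called. HRH1, the Gq-coupled receptor that antihistamines for allergy block, measured 7.48 on all 3 arrays of shARID1B+4OHT cells, 7.02, 7.26 and 7.16 in vector+4OHT cells, and 7.92, 7.99 and 8.02 in vector-4OHT cells. The 3 groups did not overlap. HRH1 fell by 0.83 with 4OHT (limma adjusted p = 2.15e-06), rose by 0.33 with the hairpin (limma adjusted p = 0.00514) and kept a difference of -0.50 from vector-4OHT cells (limma adjusted p = 0.000103). The knockdown call was lost under the methods' t-test (adjusted p = 0.0791). The 3 equal values lower its measured spread, as they do for 7 of the 118 genes and 721 of all genes, and the cause was not tested. The AP-1 letters in its promoter, printed above, belong to 1 of its 3 start sites.

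Of 8 adrenergic receptors only ADRA1B was called, although 6 lay above 6.75 on all arrays. ADRA1B, a Gq-coupled receptor for noradrenaline, measured 7.44, 7.21 and 7.44 in shARID1B+4OHT cells, 7.42, 7.29 and 7.05 in vector+4OHT cells, and 7.77, 7.80 and 7.91 in vector-4OHT cells. It fell by 0.57 with 4OHT (limma adjusted p = 0.000803), and its knockdown change of 0.11 was not called (limma adjusted p = 0.49). None of the 5 dopamine receptors and none of the 8 nucleotide receptors was called in any of the 3 comparisons. Their senescence changes ran from -0.10 to 0.05 and from -0.09 to 0.13, and their knockdown changes from -0.14 to 0.30 and from -0.16 to 0.02. Of the nucleotide receptors 6 lay above 6.75 on no array.

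**Figure D3:**
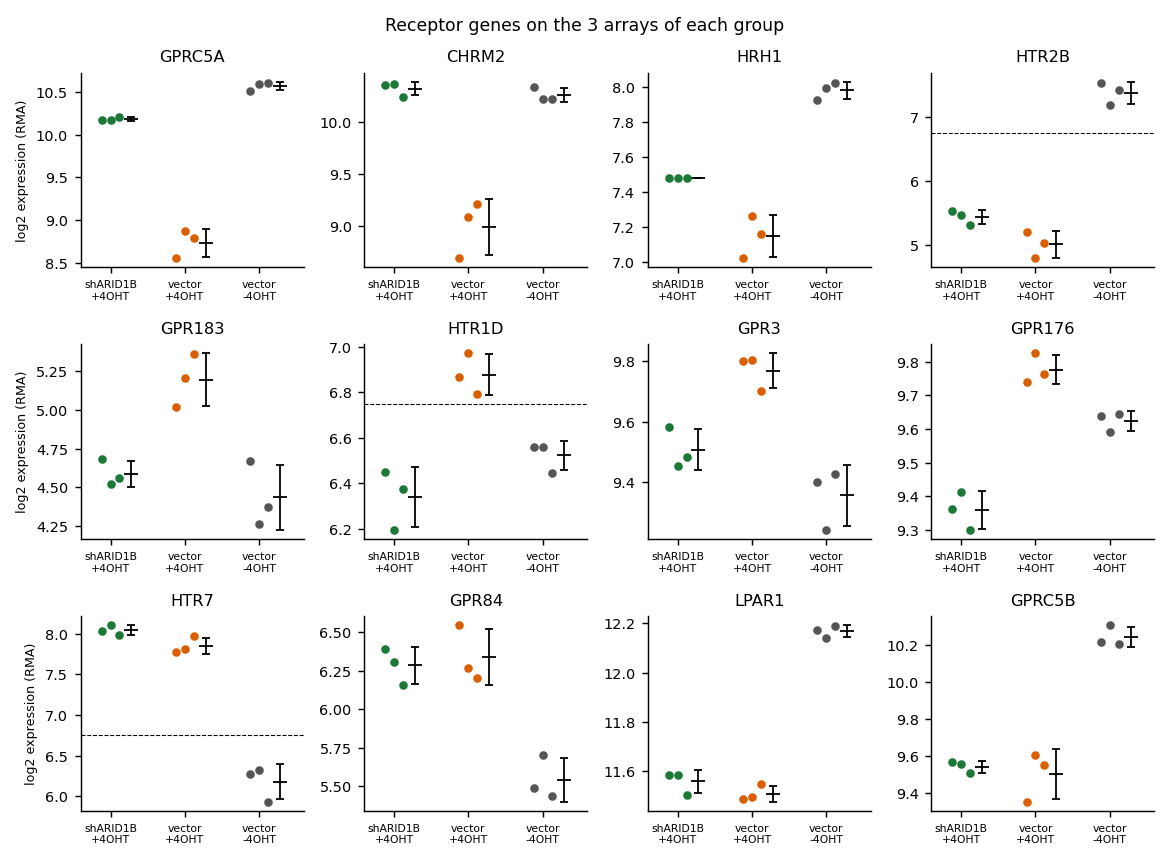
Log2 expression of 12 receptor genes, 1 point per array and 3 arrays per group, with mean and SD beside them, each panel on its own axis and a dashed line at the median of all values (6.75) where it is in range. GPRC5A averages 10.18 in shARID1B+4OHT cells, 8.73 in vector+4OHT cells and 10.57 in vector-4OHT cells, while HTR7 averages 8.04, 7.85 and 6.18 in the same order.

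Of the 4 GPRC5 genes, class C receptors with no settled ligand that were first known through retinoic acid, both with a signal above 6.75 fell with 4OHT. GPRC5A measured 10.17, 10.17 and 10.21 in shARID1B+4OHT cells, 8.55, 8.87 and 8.79 in vector+4OHT cells, and 10.51, 10.60 and 10.61 in vector-4OHT cells. The 3 groups did not overlap, and vector+4OHT cells lay well under the others. The level was 0.279 times as high in vector+4OHT as in vector-4OHT cells, a log2 change of -1.84 ± 0.07 (SE, limma adjusted p = 2.21e-08). It was 2.73-fold higher with the hairpin (log2 change 1.45 ± 0.07, SE, limma adjusted p = 2.46e-06), and a difference of -0.39 from vector-4OHT cells remained (limma adjusted p = 0.00213).

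GPRC5B measured 9.57, 9.56 and 9.51 in shARID1B+4OHT cells, 9.35, 9.61 and 9.55 in vector+4OHT cells, and 10.22, 10.31 and 10.21 in vector-4OHT cells. It fell by 0.74 with 4OHT (limma adjusted p = 9.26e-06). Unlike for GPRC5A, the shARID1B+4OHT and vector+4OHT arrays of GPRC5B overlapped, with a knockdown change of 0.04 (95% interval -0.11 to 0.19, limma adjusted p = 0.746). GPRC5C and GPRC5D lay under 6.75 on every array and were not called.

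LPA is made outside the cell by the enzyme autotaxin, and S1P inside the cell by sphingosine kinases, and each acts on a family of receptors. Of 5 LPA receptors 1 fell with 4OHT and 1 rose with the hairpin. LPAR1, which couples to Gi, Gq and G12/G13, measured 11.59, 11.59 and 11.51 in shARID1B+4OHT cells, 11.49, 11.50 and 11.55 in vector+4OHT cells, and 12.17, 12.14 and 12.19 in vector-4OHT cells. All 6 arrays with 4OHT lay under the 3 without it. Its log2 change was -0.66 ± 0.05 with 4OHT (SE, limma adjusted p = 1.57e-06) and 0.05 with the hairpin (95% interval -0.06 to 0.15, limma adjusted p = 0.535).

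LPAR3 showed no called change with 4OHT (-0.04, limma adjusted p = 0.711). It measured 8.39, 8.30 and 8.46 in shARID1B+4OHT cells, 8.04, 8.09 and 8.19 in vector+4OHT cells, and 8.12, 8.20 and 8.11 in vector-4OHT cells. Only the hairpin arrays stood apart. It rose by 0.28 with the hairpin (limma adjusted p = 0.0108), and the call was lost without shARID1B+4OHT replicate 3 and under the methods' t-test (adjusted p up to 0.0949 over the alternatives).

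LPAR6 measured 6.87, 6.77 and 6.80 in shARID1B+4OHT cells, 6.58, 6.33 and 6.74 in vector+4OHT cells, and 6.83, 6.77 and 6.77 in vector-4OHT cells. Its vector+4OHT arrays were lowest, but neither the senescence change of -0.24 (limma adjusted p = 0.0654) nor the knockdown change of 0.26 (limma adjusted p = 0.0751) was called. LPAR2 ranged from 7.32 to 7.42 in shARID1B+4OHT cells, from 7.22 to 7.30 in vector+4OHT cells and from 7.24 to 7.40 in vector-4OHT cells. LPAR4 ranged from 4.63 to 4.77 in shARID1B+4OHT cells, from 4.45 to 4.96 in vector+4OHT cells and from 4.71 to 4.82 in vector-4OHT cells. Neither was called in any comparison.

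Of 4 S1P receptors 1 fell and 1 rose with 4OHT, and none was called with the hairpin. S1PR1, the Gi-coupled receptor that lets lymphocytes leave lymph nodes, measured 7.32, 7.35 and 7.31 in shARID1B+4OHT cells, 7.21, 7.08 and 7.07 in vector+4OHT cells, and 7.35, 7.55 and 7.33 in vector-4OHT cells. It fell by 0.29 with 4OHT (limma adjusted p = 0.00546), and its knockdown change was 0.21 (limma adjusted p = 0.0609). Its senescence call was lost under the methods' t-test (adjusted p = 0.0923). S1PR4, best known from lymphocytes, measured 6.02, 5.98 and 6.04 in shARID1B+4OHT cells, 6.36, 6.31 and 6.06 in vector+4OHT cells, and 5.90, 6.00 and 6.04 in vector-4OHT cells. It lay under 6.75 throughout, and its rise of 0.26 (limma adjusted p = 0.023) was lost in 7 of 16 alternatives, among them the methods' t-test and those without replicate 1 or 2 of either vector group (adjusted p up to 0.182 over the alternatives).

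S1PR2, which acts mainly through G12 and G13, ranged from 8.49 to 8.61 in shARID1B+4OHT cells, from 8.55 to 8.74 in vector+4OHT cells and from 8.64 to 8.92 in vector-4OHT cells. S1PR5 ranged from 8.065 to 8.074 in shARID1B+4OHT cells, from 8.003 to 8.256 in vector+4OHT cells and from 7.956 to 8.001 in vector-4OHT cells. Neither was called in any comparison.

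Among the enzymes that make and break down these lipids were larger changes than among their receptors. Of 11 measured genes of S1P and LPA metabolism 7 were called with 4OHT (2 higher, 5 lower) and 5 with the hairpin (2 higher, 3 lower), or 63.6% and 45.5%, against 32.6% and 15.7% of all genes. Of the same 11, 9 lay above 6.75 on at least 3 arrays, and the list was not tested as a set. ENPP2, which encodes autotaxin, measured 7.05, 7.06 and 6.72 in shARID1B+4OHT cells, 6.92, 7.22 and 7.22 in vector+4OHT cells, and 8.79, 8.86 and 8.74 in vector-4OHT cells. It fell by 1.68 with 4OHT (limma adjusted p = 4.68e-07). PLPP3, a phosphatase that removes extracellular LPA and S1P, measured 11.11 on all 3 arrays of shARID1B+4OHT cells, 10.56, 10.49 and 10.54 in vector+4OHT cells, and 12.12, 12.08 and 12.02 in vector-4OHT cells. It fell by 1.55 with 4OHT (limma adjusted p = 2.26e-09) and rose by 0.58 with the hairpin (limma adjusted p = 2.7e-05). The 3 equal values lower its measured spread, as for HRH1.

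SPHK1, which makes S1P, measured 8.44, 8.50 and 8.60 in shARID1B+4OHT cells, 9.01, 8.99 and 9.05 in vector+4OHT cells, and 7.33, 7.37 and 7.10 in vector-4OHT cells. The 3 groups did not overlap. It rose by 1.75 with 4OHT (limma adjusted p = 2.63e-08), and its knockdown change was -0.50 (limma adjusted p = 0.00104). PLPP1, a phosphatase of the same kind as PLPP3, fell by 0.56 with 4OHT (limma adjusted p = 4.23e-05). PLPP2, of the same family and named after its values were seen, moved the other way. It measured 9.98, 9.85 and 9.92 in shARID1B+4OHT cells, 9.66, 9.53 and 9.55 in vector+4OHT cells, and 9.26, 9.37 and 9.38 in vector-4OHT cells. It rose by 0.24 with 4OHT (limma adjusted p = 0.00895) and by a further 0.34 with the hairpin (limma adjusted p = 0.00363). LIPH, a phospholipase that makes LPA, measured 6.84, 7.11 and 6.97 in vector+4OHT cells and 7.53, 7.56 and 7.25 in vector-4OHT cells. SGPP1, which removes the phosphate of S1P inside the cell, measured 8.60, 8.59 and 8.59 in vector+4OHT cells and 9.08, 8.96 and 8.91 in vector-4OHT cells. From these lower levels with 4OHT, LIPH fell by a further 0.82 with the hairpin (limma adjusted p = 0.000741) and SGPP1 by a further 0.38 (limma adjusted p = 0.0033). The shARID1B+4OHT values of LIPH were 6.38, 6.04 and 6.04. They lay under 6.75, where signal above background was not shown, so the size of that fall is uncertain.

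**Figure D4:**
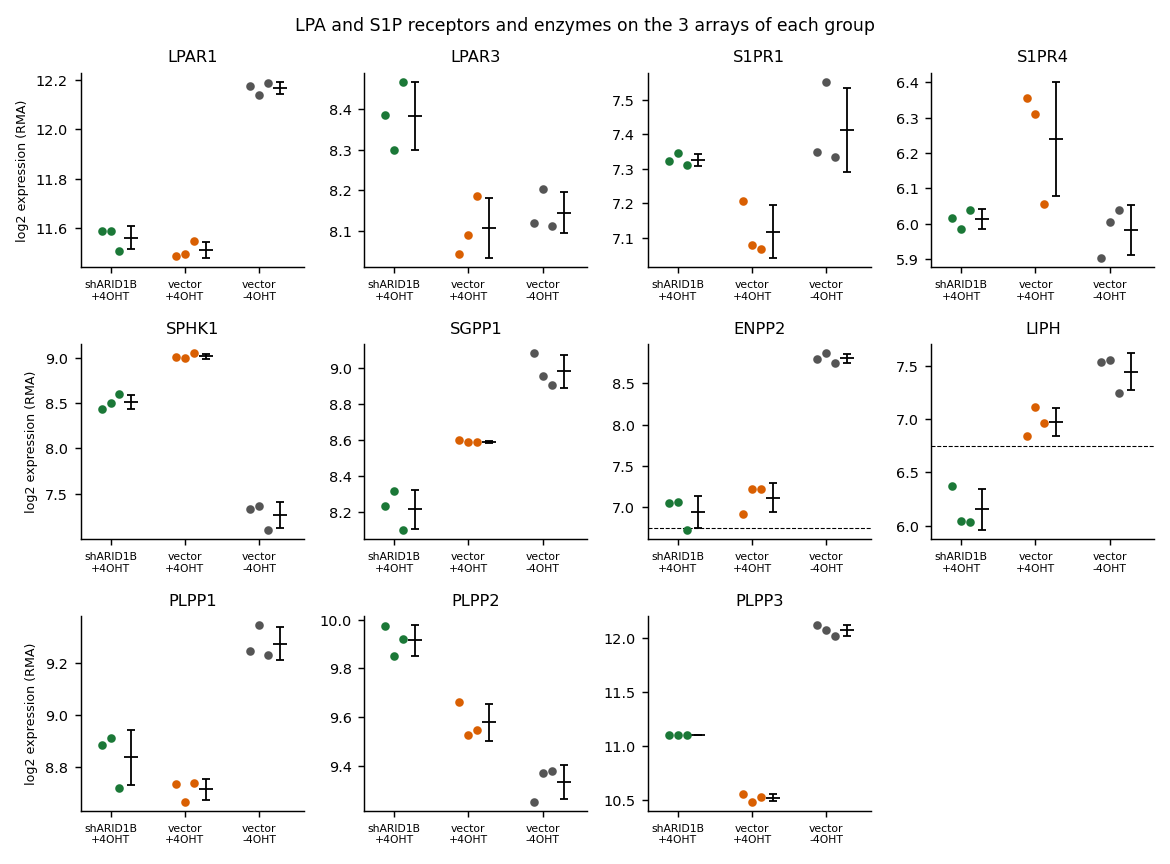
Log2 expression of 4 receptors for LPA or S1P and 7 enzymes of their metabolism, 1 point per array and 3 arrays per group, with mean and SD beside them, each panel on its own axis and a dashed line at 6.75 where it is in range. LPAR1, ENPP2, PLPP1, PLPP3, LIPH and SGPP1 are highest in vector-4OHT cells, and SPHK1 and PLPP2 are lowest there.

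Of the 63 numbered genes 13 were called with 4OHT (10 higher, 3 lower) and 5 with the hairpin (1 higher, 4 lower), or 20.6% and 7.94%, against 32.6% and 15.7% of all genes. Of the 63, 25 lay above 6.75 on at least 3 arrays. Among genes with a lipid or metabolite proposed as ligand, 2 of 9 measured rose with 4OHT. GPR84, a receptor for medium-chain fatty acids known from macrophages and neutrophils, measured 6.39, 6.31 and 6.16 in shARID1B+4OHT cells, 6.55, 6.27 and 6.20 in vector+4OHT cells, and 5.49, 5.70 and 5.44 in vector-4OHT cells. It was 1.74-fold higher with 4OHT (log2 change 0.80, limma adjusted p = 0.000116) and differed by -0.05 with the hairpin (limma adjusted p = 0.769). GPR183, a receptor for oxysterols that guides B cells, measured 4.68, 4.52 and 4.56 in shARID1B+4OHT cells, 5.02, 5.21 and 5.36 in vector+4OHT cells, and 4.67, 4.27 and 4.37 in vector-4OHT cells. Its vector+4OHT arrays stood above all 6 others. It was 1.69-fold higher with 4OHT (log2 change 0.76, limma adjusted p = 0.000279), and its knockdown change was -0.61 (limma adjusted p = 0.00388), a call lost under the methods' t-test (adjusted p = 0.0579).

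GPR84 and GPR183 lay under 6.75 on all 9 arrays, so neither was shown to be above background, and both are known from leukocytes. Of 8 leukocyte markers only CD68 lay above 6.75 in any group, and the summed linear level of the 8 was 3136 to 3528 in shARID1B+4OHT cells, 2585 to 2736 in vector+4OHT cells and 2210 to 2418 in vector-4OHT cells. CD68 had the highest mean level of the 8, at 11.16. In each comparison 1 of the 8 was called, higher. The median change of the 8 was -0.05 with 4OHT and -0.01 with the hairpin. The part of the shift in the summed level in the values of GPR84 and GPR183 was not tested.

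GPR3, GPR6 and GPR12 raise cyclic AMP without an added ligand, and of these 1 was called. GPR3 measured 9.58, 9.46 and 9.48 in shARID1B+4OHT cells, 9.80, 9.80 and 9.70 in vector+4OHT cells, and 9.40, 9.24 and 9.43 in vector-4OHT cells. Its vector+4OHT arrays were highest and its vector-4OHT arrays lowest. It rose by 0.41 with 4OHT (limma adjusted p = 0.000454). Its knockdown change was -0.26 (limma adjusted p = 0.0184), a call lost under the methods' t-test and without any one of shARID1B+4OHT replicates 2 and 3 and vector+4OHT replicates 1 and 2 (adjusted p up to 0.0814 over the alternatives). GPR6, which holds the same CRE in its promoter, changed by 0.03 with 4OHT and -0.11 with the hairpin, neither called.

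GPR176, an orphan receptor known from the circadian clock of the mouse brain, measured 9.36, 9.41 and 9.30 in shARID1B+4OHT cells, 9.74, 9.82 and 9.76 in vector+4OHT cells, and 9.64, 9.59 and 9.64 in vector-4OHT cells. The 3 groups did not overlap, and the hairpin arrays were lowest. It fell by 0.42 with the hairpin (limma adjusted p = 0.000311) and lay 0.27 under vector-4OHT cells, a log2 change of -0.27 (limma adjusted p = 0.00183). Its rise of 0.15 with 4OHT (limma adjusted p = 0.039) was lost in 9 of 17 alternatives, among them those without vector+4OHT replicate 2 or 3, without shARID1B+4OHT replicate 1 or without any one vector-4OHT array (adjusted p up to 0.126 over the alternatives).

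GPR135, an orphan, measured 7.55, 7.62 and 7.74 in shARID1B+4OHT cells, 7.91, 7.84 and 7.89 in vector+4OHT cells, and 7.98, 7.86 and 7.95 in vector-4OHT cells. It fell by 0.24 with the hairpin (limma adjusted p = 0.0184), a call lost under the methods' t-test and without shARID1B+4OHT replicate 1 or 2 (adjusted p up to 0.0976 over the alternatives). GPR85, an orphan known from the brain, measured 5.88, 6.10 and 5.76 in shARID1B+4OHT cells, 5.52, 5.56 and 5.69 in vector+4OHT cells, and 6.02, 5.78 and 5.78 in vector-4OHT cells. Its rise of 0.32 with the hairpin (limma adjusted p = 0.0468) was lost in 10 of 16 alternatives, including without shARID1B+4OHT replicate 1 or 2, vector+4OHT replicate 1 or 2, or vector-4OHT replicate 2 or 3 (adjusted p up to 0.204).

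GPR161, which sits in the primary cilium and restrains Hedgehog signalling, measured 7.47, 7.53 and 7.58 in shARID1B+4OHT cells, 7.54, 7.40 and 7.48 in vector+4OHT cells, and 7.96, 7.94 and 7.89 in vector-4OHT cells. It fell by 0.45 with 4OHT (limma adjusted p = 7.89e-05), and its knockdown change was 0.05 (limma adjusted p = 0.583). GPR63, an orphan, measured 7.66, 7.64 and 7.49 in shARID1B+4OHT cells, 7.38, 7.70 and 7.53 in vector+4OHT cells, and 7.85, 8.48 and 8.20 in vector-4OHT cells. It fell by 0.64 with 4OHT (limma adjusted p = 0.00375), with the widest spread in vector-4OHT cells (SD 0.32). Its calls against vector-4OHT cells were lost under the methods' t-test, for vector+4OHT cells at an adjusted p of 0.118 and for shARID1B+4OHT cells at 0.112.

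Of the 6 measured membrane proteins outside the receptor classes 4 rose with 4OHT (66.7%), and none was called with the hairpin, against 32.6% and 15.7% of all genes called. Of the 6, 5 lay above 6.75 on at least 3 arrays, and among all such genes 45.3% and 22.5% were called. GPR180 measured 10.42, 10.44 and 10.39 in shARID1B+4OHT cells, 10.54, 10.62 and 10.57 in vector+4OHT cells, and 10.17, 10.00 and 10.07 in vector-4OHT cells, a rise of 0.50 with 4OHT (limma adjusted p = 3.76e-05). GPR108, a Golgi protein, measured 10.67, 10.68 and 10.64 in shARID1B+4OHT cells, 10.70, 10.69 and 10.75 in vector+4OHT cells, and 10.39, 10.45 and 10.37 in vector-4OHT cells, a rise of 0.31 (limma adjusted p = 0.000359). Its relative GPR107 measured 10.35, 10.40 and 10.30 in shARID1B+4OHT cells, 10.27, 10.27 and 10.30 in vector+4OHT cells, and 10.08, 10.07 and 10.08 in vector-4OHT cells, a rise of 0.20 (limma adjusted p = 0.00554). GPR155, a lysosomal protein that senses cholesterol, measured 9.44, 9.44 and 9.33 in shARID1B+4OHT cells, 9.32, 9.32 and 9.44 in vector+4OHT cells, and 9.03, 9.08 and 9.15 in vector-4OHT cells, a rise of 0.27 (limma adjusted p = 0.00351). In all 4 genes the 3 vector-4OHT arrays lay under all 6 others, and all 4 were also called higher in shARID1B+4OHT than in vector-4OHT cells.

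Further called numbered genes were GPR157 and GPR75, which rose by 0.33 and 0.23 with 4OHT, and GPR160, which fell by 0.16 at a level of 3.88 (limma adjusted p = 0.0135, 0.0112 and 0.0249). All 3 calls were lost under the methods' t-test, that of GPR75 at an adjusted p of 0.0818. Without vector+4OHT replicate 2, vector-4OHT replicate 1 or vector-4OHT replicate 3 the call of GPR157 was lost as well (adjusted p up to 0.163). That of GPR160 was lost in 6 of 16 alternatives, among them those without replicate 2 of either vector group and with array medians subtracted (adjusted p up to 0.116). GPR157 was also 0.32 higher in shARID1B+4OHT than in vector-4OHT cells (limma adjusted p = 0.0182), which was lost under the methods' t-test and without replicate 1 or 2 of shARID1B+4OHT or replicate 1 or 3 of vector-4OHT cells (adjusted p up to 0.135). Of 3 measured proton-sensing receptors (GPR4, GPR65 and GPR132) none was called in any comparison. GPR162, with 0.32, and GPR61, with -0.33, were called only between shARID1B+4OHT and vector-4OHT cells (limma adjusted p = 0.00352 and 0.0481). GPR162 lost its call under the methods' t-test (adjusted p = 0.065), and GPR61 lost its call in 8 of 17 alternatives, among them those without shARID1B+4OHT replicate 2 or 3, vector+4OHT replicate 2, or vector-4OHT replicate 1 or 2 (adjusted p up to 0.163).

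By the pattern of calls over the 3 groups, GPRC5A, CHRM2, HRH1 and HTR2B were lower in vector+4OHT cells than in both other groups. GPR183, GPR3, HTR1D and GPR176 were higher in vector+4OHT cells than in shARID1B+4OHT and vector-4OHT cells. A group of 7 genes (HTR7, GPR84, GPR180, GPR108, GPR107, GPR155 and GPR157) was called higher in both groups with 4OHT than in vector-4OHT cells, and 6 (GPRC5B, LPAR1, GPR63, ADRA1B, HTR1B and GPR161) were called lower in both, with no called knockdown change. A change that was called in one comparison and not in another was not thereby shown to differ between them. The third log2 change is the sum of the first and second. The third and first changes of a gene therefore differ by its knockdown change, and the third and second by its senescence change.

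Of 15 measured G protein alpha subunits, 1 was called with 4OHT (6.67%) and none with the hairpin, against 32.6% and 15.7% of all genes. The senescence changes of the 15 ran from -0.32 to 0.18. GNAQ, of the Gq class, measured 11.02, 11.01 and 11.09 in shARID1B+4OHT cells, 11.02, 11.19 and 11.02 in vector+4OHT cells, and 11.29, 11.44 and 11.44 in vector-4OHT cells, a fall of 0.32 (limma adjusted p = 0.00282). Of 16 beta and gamma subunits 5 rose and 2 fell with 4OHT (43.8%), and 2 rose with the hairpin (12.5%). GNG11 rose by 0.51 with 4OHT (limma adjusted p = 1.85e-05) and by a further 0.23 with the hairpin (limma adjusted p = 0.0102), and GNG2 rose by 0.48 with 4OHT (limma adjusted p = 7.62e-05).

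RGS proteins, which speed the switching off of G proteins, included the largest rise of all these lists. Of 21 measured, 6 rose and 2 fell with 4OHT (38.1%), and 2 rose with the hairpin (9.52%), against 32.6% and 15.7% of all genes. RGS5, known from pericytes, measured 9.67, 9.76 and 9.65 in shARID1B+4OHT cells, 9.25, 9.08 and 9.19 in vector+4OHT cells, and 7.27, 7.00 and 7.18 in vector-4OHT cells. It rose by 2.02 with 4OHT (limma adjusted p = 1.02e-08) and by a further 0.52 with the hairpin (limma adjusted p = 0.00102). RGS17 rose by 1.03 with 4OHT (limma adjusted p = 2.23e-06), RGS4 by 0.86 (limma adjusted p = 2.56e-06), and RGS7, under 6.75 on all 9 arrays, fell by 0.63 (limma adjusted p = 2.49e-05). RGS2, which acts on Gq, measured 9.66, 9.76 and 9.51 in shARID1B+4OHT cells, 8.75, 8.89 and 8.84 in vector+4OHT cells, and 8.92, 9.09 and 8.95 in vector-4OHT cells, and rose by 0.82 in shARID1B+4OHT against vector+4OHT cells (limma adjusted p = 5.74e-05). Its change of -0.16 in vector+4OHT against vector-4OHT cells was not called.

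Of 8 measured receptor kinases and arrestins 3 rose with 4OHT, all of them kinases (GRK2, GRK3 and GRK6), and 1 fell, ARRB1. Together they were 50% of the list, against 32.6% of all genes. With the hairpin 1 was called (12.5%), against 15.7% of all genes. Of the 8, 5 lay above 6.75 on at least 3 arrays. GRK3 rose by 0.69 (limma adjusted p = 5.8e-05). ARRB1, or beta-arrestin 1, fell by 0.18 with 4OHT (limma adjusted p = 0.048) and rose by 0.25 with the hairpin (limma adjusted p = 0.0234).

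Of 10 adenylyl cyclases 1 was called with 4OHT and with the hairpin (10% each), against 32.6% and 15.7% of all genes. ADCY3 measured 9.02, 9.05 and 8.98 in shARID1B+4OHT cells, 8.51, 8.81 and 8.67 in vector+4OHT cells, and 8.84, 8.96 and 9.15 in vector-4OHT cells, a fall of 0.32 with 4OHT (limma adjusted p = 0.0168) and a rise of 0.36 with the hairpin (limma adjusted p = 0.0196). Of 4 phospholipase C beta genes 2 fell with 4OHT (50%) and 1 rose with the hairpin (25%), against the same 32.6% and 15.7%. PLCB1 fell by 0.44 (limma adjusted p = 0.00783) and PLCB4 by 0.48 (limma adjusted p = 0.00245) with 4OHT, and PLCB1 rose by 0.50 with the hairpin (limma adjusted p = 0.00891). Of 10 cyclic AMP phosphodiesterases 2 rose and 2 fell with 4OHT (40%, against 32.6% of all genes). With the hairpin 2 rose and 1 fell (30%, against 15.7% of all genes). PDE8A rose by 0.78 with 4OHT (limma adjusted p = 2.35e-06) and PDE7B fell by 0.98 (limma adjusted p = 3.23e-07), and with the hairpin PDE7B rose by 0.33 (limma adjusted p = 0.00311) and PDE7A by 0.45 (limma adjusted p = 0.00218). PDE4D, under 6.75 on all 9 arrays, rose by 0.43 with 4OHT (limma adjusted p = 0.000191), and its knockdown change was -0.20 (limma adjusted p = 0.0381).

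Among 12 measured genes of amine synthesis and breakdown, 1 rose and 3 fell with 4OHT (33.3%, against 32.6% of all genes). With the hairpin 1 was called (8.33%, against 15.7% of all genes). MAOB, a mitochondrial enzyme that breaks down amines, rose by 0.74 with 4OHT (limma adjusted p = 0.000105) and its knockdown change was -0.47 (limma adjusted p = 0.00672). All shARID1B+4OHT and vector-4OHT values of MAOB lay under 6.75, as did vector+4OHT replicate 1 at 6.60, so the size of both changes is uncertain. Its relative MAOA, under 6.75 on all 9 arrays, fell by 0.59 with 4OHT (limma adjusted p = 0.00226), as did HNMT, which inactivates histamine, by 0.50 (limma adjusted p = 0.00233), and HDC, which makes histamine, by 0.21 at a level under 6.75 (limma adjusted p = 0.0484).

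**Figure D5:**
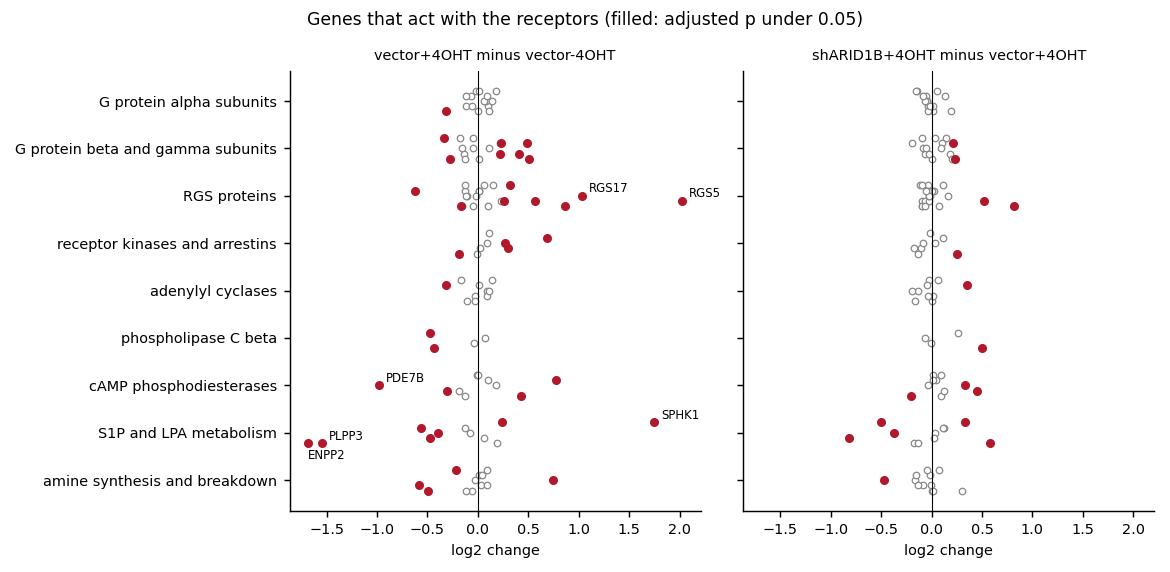
Log2 change of each measured gene (points) in 9 lists of genes that act with the receptors, with 4OHT on the left and with the hairpin on the right, called changes filled and those beyond 0.9 named. RGS5 (2.02) and SPHK1 (1.75) have the highest senescence changes and ENPP2 (-1.68) and PLPP3 (-1.55) the lowest.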

How the data were processed

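Total RNA of the 9 samples was hybridised to Affymetrix whole-transcript arrays, although the labels' extraction text names an Illumina library kit. The log2 values were used as deposited, 1 per probe set and array, and the submitters' processing notes name RMA, oligo and limma, with versions and genome build not given in the sources used here. RMA subtracts background, makes the arrays' distributions equal and summarises probes, so differences are relative to the whole array. Of 33297 probe sets (values 2.29 to 14.22), 19460 carried 1 gene symbol. Where a gene had several, as 769 did, the highest mean decided, which left 18417 genes.

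A linear model with a mean for each group was fitted to the 9 arrays in limma 3.58.1 under R 4.3.3, with moderated 2-sided tests adjusted by Benjamini-Hochberg over the 18417 genes. Residual degrees of freedom were 6, and 10.45 after moderation. The number of arrays limits the precision, and 0.1 is the smallest p of an exact permutation test with 3 arrays a group. The fit was tested on simulated data.

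Named with the values of each array were the called members among the 14 largest changes of senescence and of knockdown and the 8 largest of the remaining difference, the 10 highest means, and the LPA and S1P families. From each list of acting genes up to 4 called genes per comparison were named. Members and lists were chosen with earlier results of these data known, and no set test was run. Results were recomputed with replicate number as a block, a fit on the pair of groups alone, a filter on dim genes, a fit to every probe set, averaging over the probe sets of a gene, subtracting array medians, an intensity trend with a robust prior, the methods' t-test, current symbols, and leaving out each array in turn.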

Additional observations from a re-analysis of the deposited data

How the results depend on the processing

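None of the called receptor changes turned direction under any alternative. In 886 of 962 pairs of a called change and an alternative the call was kept. Many alternatives reuse the same group means, so they could change the call but not the direction. These were the block, the pair of groups alone, the dim filter, every probe set, the trend and the t-test. Leaving out an array of the group not compared is another, and averaging concerned only 1 member with several probe sets. Calls were kept under every alternative for 17 of 25 genes in senescence, 3 of 11 in knockdown (CHRM2, GPRC5A and GPR176) and 16 of 21 in the remaining difference. Under the methods' t-test (Student, on the 6 arrays compared, Benjamini-Hochberg over all genes), 3 receptor genes were called in knockdown against 11 with limma, and 24 genes of the acting lists in senescence against 38, which were 107 measured genes. This t-test estimates the spread of each gene from 6 arrays alone. At an unadjusted p under 0.05 it gave 24 receptor genes in senescence, 15 in knockdown and 25 in the remaining difference, against 32.6%, 23.6% and 36.4% of all genes. Leaving out 1 array at a time gave 22 to 29 receptor genes in senescence, 7 to 13 in knockdown and 19 to 24 in the remaining difference. With array medians subtracted, 27, 13 and 24 were called.

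The titles number the replicates alike in the 3 groups, but nothing says that a number marks a shared culture. Deviations of same-numbered arrays from their group means correlated at -0.19 to 0.23, so the numbers were not taken as pairs. With the replicate number as a block, 25, 10 and 21 receptor genes were called, of which 23, 10 and 21 were also called without it. In senescence GPR160 and GPR176 lost their call and GPR61 and GPR83 gained one, and in knockdown GPR85 lost its call. Alternatives for the acting lists and for ARID1B were added after the data were seen. Without detection calls, signal over background is unknown for the 62 receptor genes that lay above 6.75 on no array.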
